A study of Homo sapiens with 6 samples.

Results

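A set of 8 genes of RNA processing and decay was followed in LNCaP-AI cells: UPF1, REXO5, LAS1L, DHX33, RBM5, RBM6, GCFC2 and POLR2J. They were chosen by name, with earlier results of these data known, and were all found among the 99 genes analysed here from the authors' gene table. LNCaP-AI is a castration-resistant derivative of the androgen-responsive prostate cancer line LNCaP. The control group was 3 libraries of cells with the vector alone, and the group called knockdown here was 3 libraries of cells with sh_0092339, a short hairpin construct named after the circular RNA hsa_circ_0092339. All 6 libraries came from the same cell line. The labels name only 1 hairpin, so what it does to other transcripts and what follows from loss of the circular RNA cannot be told apart. The circular RNA and the 7 luminal prostate markers on the marker list (KLK3 among them) were not analysed here, so neither the knockdown nor the cell identity was checked.

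These genes act at successive stages of the life of an RNA. RNA polymerase II makes the precursor of an mRNA, the spliceosome removes its introns and is then taken apart, and surveillance factors destroy mRNAs with premature stop codons. In parallel, ribosomal RNA is transcribed in the nucleolus, cut out of a long precursor and trimmed by nucleases. MYC, which the series links to the circular RNA through the microRNA hsa-miR-940, is known for driving ribosome production and transcription in prostate cancer cells.

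The microRNA is shown because the series places it between the circular RNA and MYC. Its mature sequence (RefSeq, GRCh38.p14, chr16:2271806-2271826, plus strand) carries the seed, bases 2 to 8, in capitals.

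hsa-miR-940: aAGGCAGGgcccccgcucccc

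The letters that pair with this seed, CCTGCCT, were searched for in the 3′ UTR of the coding transcript with the longest reading frame of each gene in GENCODE 29. None of the 8 genes held a match in that window, which ranged from 119 bases in RBM6 to 3293 bases in DHX33. Of 18781 genes with such a UTR, 4600 (24.5%) held at least 1 match. Other transcripts of the 8 genes were not searched.

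The promoters of 4 genes are shown, from 250 bases before to 50 bases after the RefSeq start (GRCh38.p14, each on its gene's strand): LAS1L and REXO5, whose rise and fall lost their calls least often, and the neighbours RBM6 and RBM5. Capitals mark a CCAAT box (CCAAT) or an ETS core (CCGGAAG) on either strand; no marked stretches overlapped.

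LAS1L promoter (chrX:65534738-65535037, - strand): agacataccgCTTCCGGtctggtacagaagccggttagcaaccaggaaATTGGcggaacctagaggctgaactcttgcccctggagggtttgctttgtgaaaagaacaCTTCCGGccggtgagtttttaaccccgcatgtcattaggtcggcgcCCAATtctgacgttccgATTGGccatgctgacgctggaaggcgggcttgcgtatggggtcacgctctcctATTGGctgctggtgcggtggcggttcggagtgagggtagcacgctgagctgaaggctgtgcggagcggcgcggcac

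REXO5 promoter (chr16:20806277-20806576, + strand): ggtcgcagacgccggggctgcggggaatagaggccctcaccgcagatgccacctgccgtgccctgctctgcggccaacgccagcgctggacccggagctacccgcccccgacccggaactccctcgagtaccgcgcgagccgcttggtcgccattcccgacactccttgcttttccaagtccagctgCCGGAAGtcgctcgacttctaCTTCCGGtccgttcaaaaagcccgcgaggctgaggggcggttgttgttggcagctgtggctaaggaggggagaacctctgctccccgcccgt

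RBM6 promoter (chr3:49939900-49940199, + strand): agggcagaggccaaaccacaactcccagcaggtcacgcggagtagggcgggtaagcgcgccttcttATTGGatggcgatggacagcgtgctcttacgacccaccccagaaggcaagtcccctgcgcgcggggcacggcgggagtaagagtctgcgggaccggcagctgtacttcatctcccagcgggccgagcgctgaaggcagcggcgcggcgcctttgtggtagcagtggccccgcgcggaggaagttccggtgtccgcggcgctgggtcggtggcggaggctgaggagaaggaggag

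RBM5 promoter (chr3:50088669-50088968, + strand): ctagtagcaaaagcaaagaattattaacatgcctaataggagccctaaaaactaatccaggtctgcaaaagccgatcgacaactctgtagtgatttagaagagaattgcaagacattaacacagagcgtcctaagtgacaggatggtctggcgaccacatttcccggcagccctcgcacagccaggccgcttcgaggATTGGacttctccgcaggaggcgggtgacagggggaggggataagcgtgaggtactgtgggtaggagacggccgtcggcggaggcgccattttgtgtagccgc

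Promoters were matched for 6 of the 8 genes, the others being DHX33 and POLR2J. A CCAAT box was present in 4 of the 6, those of LAS1L, UPF1, RBM6 and RBM5, and in 34.6% of all 35116 promoters of the same length. LAS1L held 4 of them, at -202, -96, -79 and -26 bases from the start. The ETS core was present in 2 of the 6 promoters, 2 times each, at -240 and -142 in LAS1L and at -63 and -42 in REXO5, and in 10.3% of all promoters. The E-box CACGTG, to which MYC binds, was in 0 of the 6 and in 7.26% of all promoters. These are matches of letters in short windows and do not show binding.

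All 8 genes were expressed well above the low-value filter. In FPKM (fragments per kilobase of gene, scaled to mapped fragments, as the authors computed it), the mean level over the 6 libraries was highest for POLR2J at 54.5 ± 4.602 FPKM (SD, n = 6) and lowest for REXO5 at 3.50 ± 0.710. Between them came LAS1L at 25.2 ± 2.71, UPF1 at 19.3 ± 1.98, RBM5 at 12.8 ± 0.398, DHX33 at 12.8 ± 1.68, RBM6 at 9.67 ± 0.991 and GCFC2 at 7.16 ± 0.947 FPKM. The order was the same in every library except for RBM5 and DHX33, where RBM5 was the higher in 4 of 6 libraries and their ranges overlapped. The ranges of LAS1L and UPF1, of DHX33 and RBM6, and of RBM6 and GCFC2 also overlapped, although the first of each pair was higher in all 6 libraries. The smallest count behind any of these values was 592 fragments (REXO5 in knockdown 1), and the largest 13943 (UPF1 in knockdown 2).

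FPKM levels depend on the length by which counts were divided. That length was 10370 bases for RBM5 as implied by the deposited counts and FPKM, against 10368 bases for all its annotated exons merged and 3188 bases for its coding transcript with the longest reading frame. GENCODE 29 lists 26 transcripts of RBM5, 16 of them with a retained intron. For UPF1 the lengths were 8576 and 8600 bases against 5311 for the transcript, and for POLR2J 1355 and 1355 against 784. The levels of different genes are thus comparable only per base of all merged exons. Ratios of FPKM between groups are not touched by this, since the same length applied in every library, and the fits on counts did not use it. The limma fits added a fixed pseudocount to FPKM before the logarithm, so their fold changes depend on the level and thus on the length. For REXO5 the log2 fold change was -0.40 in the main limma fit and -0.50 with a smaller pseudocount of 0.1.

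**Figure D1:**
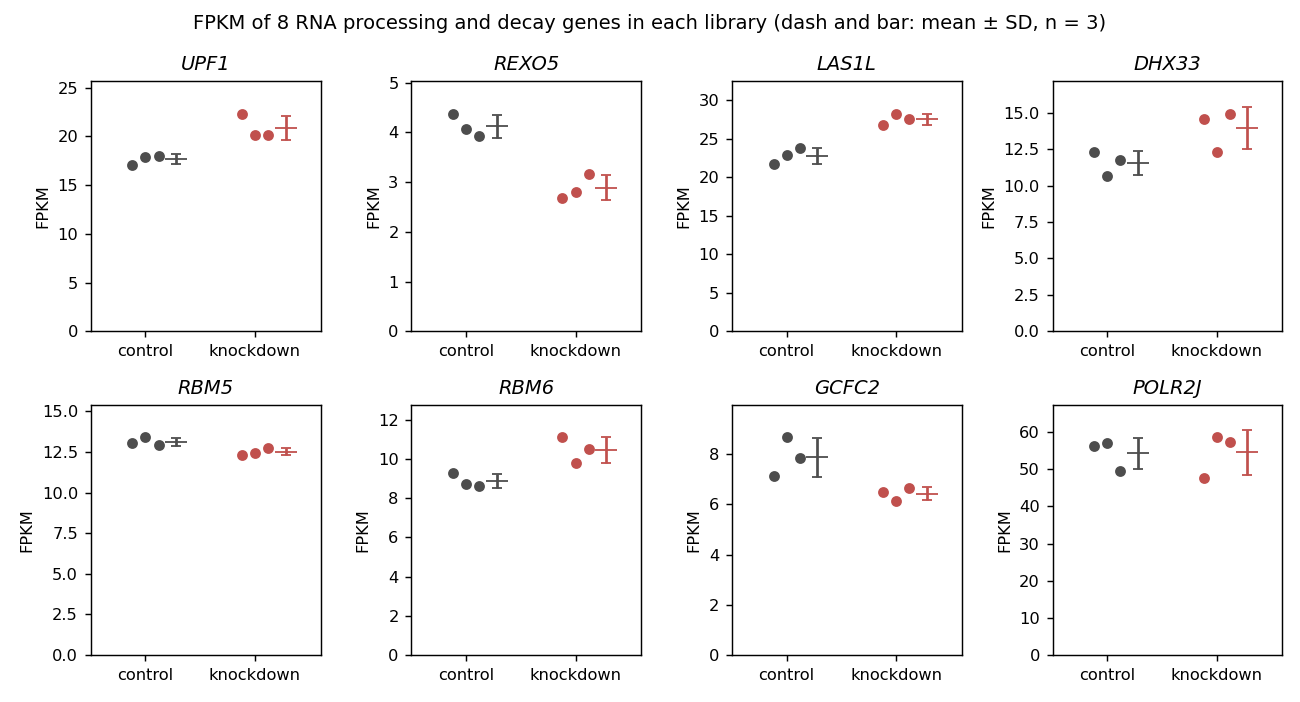
FPKM of the 8 genes (vertical axes, each from 0) in the 3 control and 3 knockdown libraries; each point is a library, in replicate order from left to right, and the dash with its bar is the mean ± SD. The knockdown points lie above all control points for UPF1, LAS1L and RBM6, and barely so for DHX33. They lie below all control points for REXO5 and GCFC2, and by little for RBM5. For POLR2J the groups overlap.

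Across the 8 genes, 3 rose in the knockdown libraries (UPF1, LAS1L and RBM6), 2 fell (REXO5 and GCFC2) and 3 did not pass the test (DHX33, RBM5 and POLR2J), at an adjusted p under 0.05. The same 5 genes were called in the same directions by limma on log2(FPKM + 1) and by edgeR's quasi-likelihood test on the counts. Both units carry the same measurement, so the 2 fits are not independent. By limma 20.0% of the 70 genes tested rose and 11.4% fell, and by edgeR 15.5% of 84 rose and 9.52% fell. The groups did not overlap for 7 of the 8 genes, against 52.9% of the 70. The 8 genes are among those tested and were chosen with earlier results known, so these shares give no test of the set. The median log2 fold change by limma was 0.11 over the 8 genes and 0.03 over all 70, with rises and falls among the 8. The changes were of moderate size: the ratio of group means ran from 0.701 for REXO5 to 1.21 for LAS1L.

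**Figure D2:**
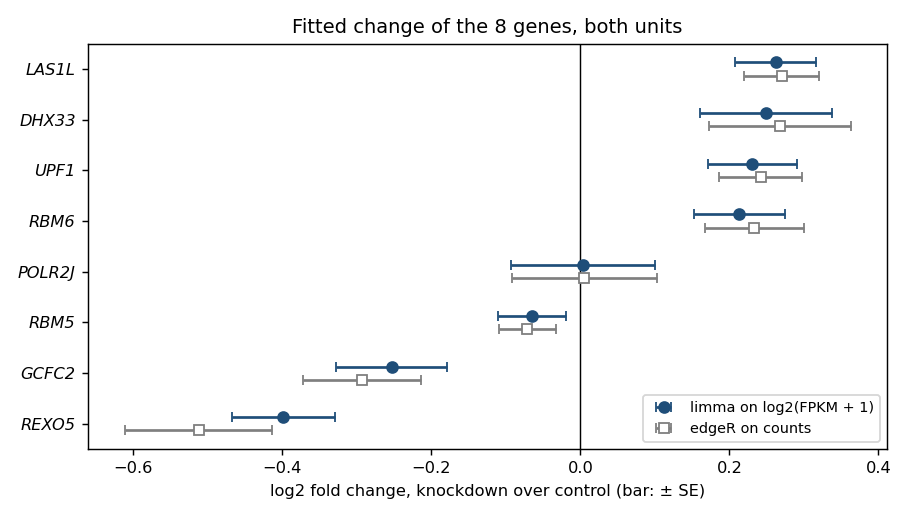
Fitted log2 fold change of the 8 genes, knockdown over control, by limma on log2(FPKM + 1) (filled circles) and edgeR on counts (open squares), with bars of ± SE. The SE for edgeR was derived from the fold change and the F statistic. LAS1L, DHX33, UPF1 and RBM6 sit between 0.21 and 0.27 in both fits, POLR2J near 0, and REXO5 lowest at -0.40 and -0.51.

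UPF1 belongs to RNA decay and REXO5 to the RNA exonucleases, and in both fits they moved in opposite directions. UPF1 (ENSG00000005007, GRCh38 chr19:18831959-18868230, plus strand) is the helicase at the core of nonsense-mediated decay. Its level was 17.05, 17.9 and 18.01 FPKM in controls 1 to 3 and 22.3, 20.2 and 20.1 FPKM in knockdowns 1 to 3. Every knockdown library was above every control library, and knockdown 1 was the highest. The mean rose from 17.6 ± 0.519 to 20.9 ± 1.26 FPKM (SD, n = 3 each), which is 18.4% more, with a log2 fold change of 0.23 ± 0.0599 (SE) by limma (adjusted p = 0.0289) and 0.24 ± 0.0561 by edgeR (adjusted p = 0.0239). In CPM (counts scaled to the mapped fragments of each library), the mean went from 151 ± 4.44 to 179 ± 10.8.

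The UPF1 call depended on single libraries and on the scaling. By limma the adjusted p was 0.0929 without control 1, 0.0665 without control 2, 0.0758 without knockdown 1 and 0.0568 without knockdown 3. By edgeR it was 0.0730 without control 1, 0.0869 without control 2 and 0.0607 without knockdown 2. With quantile normalization of the 70 tested genes the log2 difference was -0.04 (limma adjusted p = 0.664), so the direction turned under that scaling. By edgeR with upper-quartile factors the call was lost (adjusted p = 0.0529).

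REXO5 (ENSG00000005189, chr16:20806429-20849668, plus strand) encodes an RNA exonuclease, whose Drosophila counterpart trims the ends of small nucleolar and ribosomal RNAs. Its level was 4.38, 4.06 and 3.92 FPKM in the controls and 2.69, 2.81 and 3.17 FPKM in the knockdown libraries, so the groups lay well apart. The counts were 1051, 983 and 1120 fragments against 592, 935 and 967. The mean fell from 4.12 ± 0.233 to 2.89 ± 0.254 FPKM (SD, n = 3 each). It fell by 29.9%, the largest change among the 8 genes. The log2 fold change was -0.40 ± 0.0694 by limma (adjusted p = 0.00837) and -0.51 ± 0.0992 by edgeR (adjusted p = 0.0119). With a pseudocount of 0.1 in place of 1, the limma value was -0.50. REXO5 was called under all 11 limma alternatives in which it was tested, and under 11 of 12 on counts. The exception was edgeR without knockdown 2, at an adjusted p of 0.0607.

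ERI2, another exonuclease gene, lies on the opposite strand across its whole annotated span, and they share 248 exonic bases, 6.03% of the exonic bases of REXO5. No source used here says whether the counting used strand, so reads in those bases cannot be assigned. ERI2 itself was not analysed here.

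LAS1L and DHX33 serve ribosome production. LAS1L (ENSG00000001497, chrX:65512582-65534787, minus strand) is the endonuclease that cuts an internal spacer out of the precursor of the large-subunit RNAs. Its level was 21.7, 22.9 and 23.8 FPKM in the controls and 26.8, 28.2 and 27.5 FPKM in the knockdown libraries. The gap between the groups was wider than the spread within either. The mean rose from 22.8 ± 1.03 to 27.5 ± 0.706 FPKM (SD, n = 3 each), or by 20.7%, with a log2 fold change of 0.26 ± 0.0544 by limma (adjusted p = 0.0134) and 0.27 ± 0.0504 by edgeR (adjusted p = 0.0117). Its call was lost in limma without control 1 (adjusted p = 0.0510) and in edgeR without control 2 (0.0780) or knockdown 2 (0.0670), and it held under the other alternatives. No annotated gene overlaps LAS1L.

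DHX33 (ENSG00000005100, chr17:5440917-5468982, minus strand), a DEAH-box helicase that promotes transcription of ribosomal RNA genes, had a mean change of about the same size but a wider spread. Its level was 12.308, 10.7 and 11.7 FPKM in the controls and 14.6, 12.314 and 14.9 FPKM in the knockdown libraries. Control 1 and knockdown 2 were nearly equal, so the groups were separated only in the last digits. The mean was 11.6 ± 0.839 FPKM in the controls and 14.0 ± 1.43 FPKM in the knockdown (SD, n = 3 each). The log2 fold change of 0.25 ± 0.0886 by limma (adjusted p = 0.0678) and 0.27 ± 0.0949 by edgeR (adjusted p = 0.0743) did not pass. By limma DHX33 was called without knockdown 2 (adjusted p = 0.0331), with median centring (0.0436) and with a minimum of 5 FPKM (0.0464).

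RBM5, RBM6 and GCFC2 belong to splicing. RBM5 and RBM6 are related RNA-binding proteins that regulate alternative splicing, and their genes are neighbours on chromosome 3, both on the plus strand. RBM6 (ENSG00000004534) lies at chr3:49940007-50100045 and RBM5 (ENSG00000003756) at chr3:50088919-50119021. RBM6 had 9.29, 8.73 and 8.60 FPKM in the controls and 11.1, 9.78 and 10.49 FPKM in the knockdown libraries, higher in each knockdown library than in any control. It rose from 8.88 ± 0.367 to 10.46 ± 0.666 FPKM (SD, n = 3 each), by 17.8%. The log2 fold change was 0.21 ± 0.0615 by limma (adjusted p = 0.0399) and 0.23 ± 0.0663 by edgeR (adjusted p = 0.0446). This call was close to the threshold: in limma it was lost without control 1, control 2, control 3, knockdown 1 or knockdown 3 (adjusted p = 0.0510, 0.110, 0.0726, 0.0941 and 0.104), and in edgeR without any 1 of the 6 libraries (adjusted p from 0.0520 to 0.115). With all 6 libraries RBM6 was also not called by limma with no low-value filter (adjusted p = 0.0561), and on counts with limma-voom (0.0599), with no low-count filter (0.0538) or by edgeR with upper-quartile factors (0.133).

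RBM5 varied least over the 6 libraries, relative to its mean, among the 8 genes. Its level was 13.1, 13.4 and 12.9 FPKM in the controls and 12.3, 12.4 and 12.8 FPKM in the knockdown libraries. All knockdown values were below all control values, but by little: the mean was 13.1 ± 0.241 FPKM in the controls and 12.5 ± 0.229 FPKM in the knockdown (SD, n = 3 each), a ratio of 0.953. RBM5 did not pass the test, with a log2 fold change of -0.06 ± 0.0457 by limma (adjusted p = 0.291) and -0.07 ± 0.0388 by edgeR (adjusted p = 0.192). The 95% interval of its fold change, on the log2(FPKM + 1) scale and for a single gene, ran from 0.887 to 1.03. With median centring the log2 difference was 0.02, on the other side of 0.

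The balance of the neighbours differed between the groups. The ratio of RBM6 to RBM5 FPKM was 0.712, 0.652 and 0.665 in the controls and 0.901, 0.785 and 0.822 in the knockdown libraries. Each knockdown ratio was above each control ratio, and knockdown 1 had the highest. The mean ratio was 0.676 ± 0.0315 and 0.836 ± 0.0593 (SD, n = 3 each), a 1.24-fold difference, or 0.30 on the log2 scale (exact two-sided permutation p = 0.1, the smallest that 3 against 3 allow). The ratio of the counts gave the same difference of 0.30. This is no separate check, since FPKM are the counts divided by a fixed length and a shared depth. Leaving out 1 library at a time gave 0.25 to 0.35.

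The annotated ends of the genes overlap by 11138 bases, in which 456 bases are exonic in both. These make up 6.24% of the exonic bases of RBM6 and 4.40% of those of RBM5. Of the stretches of 50 bases in the RBM5 coding transcript, 13% also occur in transcripts of RBM6, whereas no stretch of that length in the RBM6 coding transcript occurs in a transcript of another gene. No source used here says how the authors' counting split reads of the shared exons, and its part in the ratio was not tested. RBM5 is also overlapped on the opposite strand by RBM5-AS1 and SEMA3F-AS1, with 1007 and 801 shared exonic bases, which were not analysed here.

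**Figure D3:**
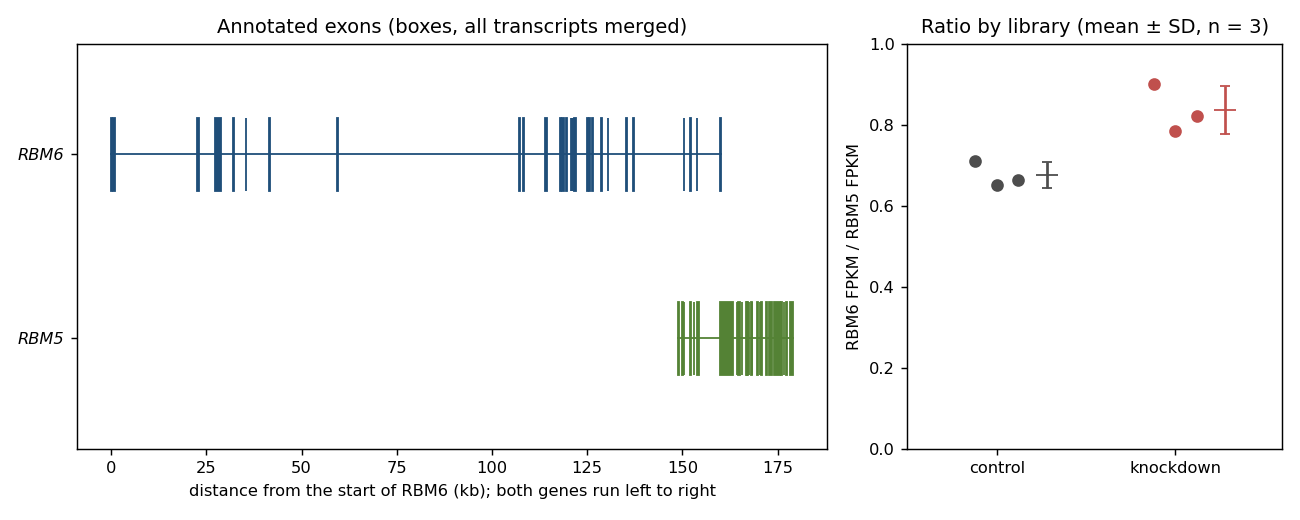
Left, merged annotated exons of RBM6 and RBM5 along the distance from the start of RBM6 in kb, with a minimum drawn width for short exons, and right, the ratio of RBM6 to RBM5 FPKM in each library with the mean ± SD. The end of RBM6 runs into the start of RBM5, and the ratio is 0.652 to 0.712 in the controls and 0.785 to 0.901 in the knockdown libraries.

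GCFC2 (ENSG00000005436, chr2:75652000-75710985, minus strand), which takes part in the disassembly of the spliceosome after splicing, was lower in the knockdown libraries. It had 7.11, 8.67 and 7.85 FPKM in the controls and 6.51, 6.15 and 6.64 FPKM in the knockdown libraries. The controls were more spread out than the knockdown libraries, and the lowest control was still above the highest knockdown value. The mean went from 7.88 ± 0.780 to 6.43 ± 0.255 FPKM (SD, n = 3 each) and so fell by 18.3%, with a log2 fold change of -0.25 ± 0.0742 by limma (adjusted p = 0.0411) and -0.29 ± 0.0791 by edgeR (adjusted p = 0.0375). By limma the call was lost without control 2 (adjusted p = 0.110), control 3 (0.0694), knockdown 1 (0.0859), knockdown 2 (0.118) or knockdown 3 (0.0829), and by edgeR without the same libraries (0.0849 to 0.0993). With all 6 libraries it was also lost by limma with no low-value filter (0.0689) or with median centring (0.0713, log2 fold change -0.17), and by edgeR with library sizes alone (0.0506). MRPL19 overlaps GCFC2 on the opposite strand with 132 shared exonic bases, 2.42% of those of GCFC2. AC005034.5, also on the opposite strand, shares 147 exonic bases (2.69%).

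POLR2J (ENSG00000005075, chr7:102473118-102478907, minus strand) encodes a subunit of RNA polymerase II that takes part in assembly of the enzyme. Its level was 56.2, 57.2 and 49.6 FPKM in the controls and 47.7, 58.6 and 57.5 FPKM in the knockdown libraries. Control 3 and knockdown 1 were low and the other 4 libraries were close together, so the groups overlapped. The mean was 54.3 ± 4.13 FPKM in the controls and 54.6 ± 5.99 FPKM in the knockdown (SD, n = 3 each), with a log2 fold change of 0.00 ± 0.0970 by limma (adjusted p = 0.972) and 0.01 ± 0.0979 by edgeR (adjusted p = 0.968). The 95% interval of the fold change on the log2(FPKM + 1) scale ran from 0.853 to 1.18. The value is uncertain for another reason: 61.0% of the stretches of 50 bases in the POLR2J coding transcript also occur in transcripts of other genes, mainly the near copies POLR2J3 (57.4%), POLR2J2 (49.4%) and POLR2J4 (42.7%), which were not analysed here.

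The 6 lists of RNA decay, exonucleases, ribosome production, splicing, RNA polymerase II and mRNA 3′ ends and export held 490 genes. Of these, 9 were among the 99 genes analysed here. Besides the 8 genes this was RPAP3, which helps assemble RNA polymerase II with HSP90. RPAP3 had 10.95, 9.86 and 10.7 FPKM in the controls and 12.6, 11.9 and 12.3 FPKM in the knockdown libraries, with no overlap. It rose by limma, with a log2 fold change of 0.20 ± 0.0567 (adjusted p = 0.0377), but did not pass by edgeR, at 0.21 ± 0.0649 (adjusted p = 0.0534). By limma the call was lost without control 1 (adjusted p = 0.0510), control 2 (0.110), knockdown 1 (0.0941), knockdown 2 (0.0574) or knockdown 3 (0.103).

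Among the other tested genes of the table, the profile of log2(FPKM + 1) over the 6 libraries nearest to that of UPF1 was that of ANKIB1, with a root mean square distance of 0.0423 after centring, followed by RPAP3 (0.0684) and C1orf112 (0.0685). The median distance over the other tested genes was 0.154. For REXO5 the nearest were BAD (0.108), SPPL2B (0.109) and SLC25A5 (0.112), against a median of 0.251. The profiles share their libraries and groups, so nearness is a description of these 6 libraries only.

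**Figure D4:**
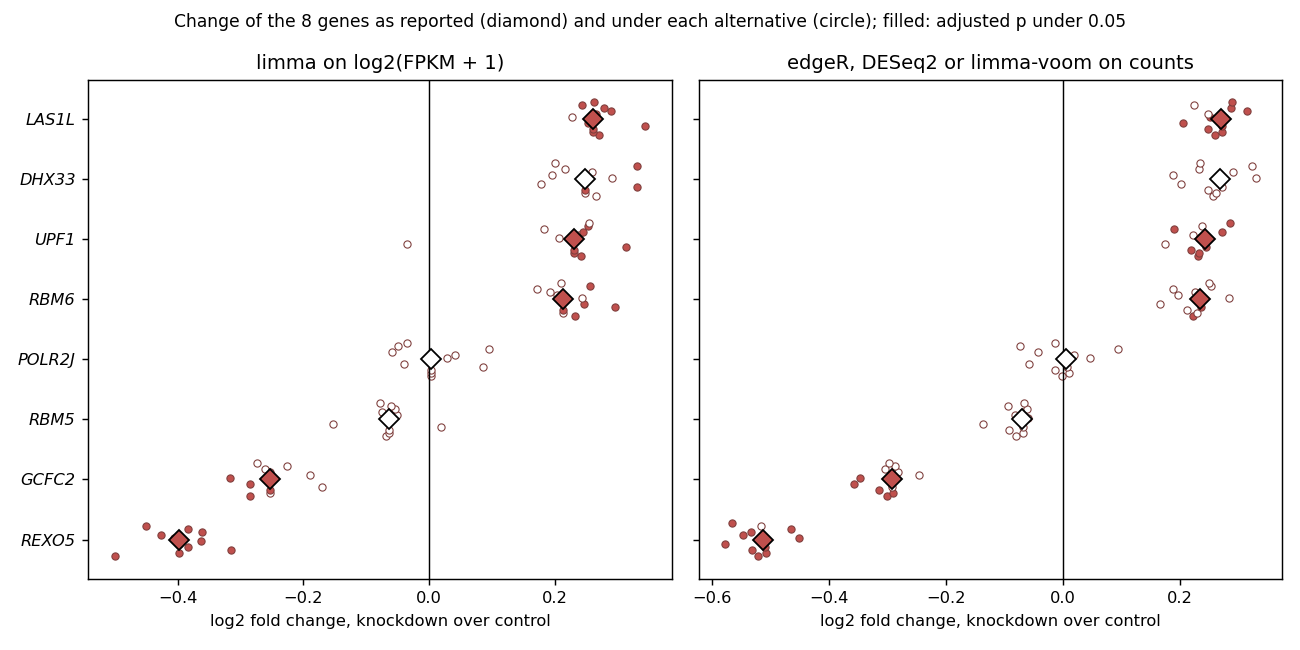
Log2 fold change of each gene, knockdown over control, as reported (diamonds) and under each alternative processing (circles), for FPKM on the left and counts on the right, filled where the adjusted p was under 0.05. REXO5 and LAS1L stay filled in nearly all settings, RBM6 and GCFC2 are filled in fewer, and 1 circle of UPF1 lies at -0.04.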

How the data were processed

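Total RNA of each library was sequenced. The tools cutadapt, HISAT2 and StringTie are named in the submitters' processing notes, which give no version and state the build hg18. The coordinates in the table are nevertheless those of GRCh38, since all 99 genes overlap the same gene in GENCODE 29. The authors' gene table holds FPKM per library. Whole-number counts stand beside them, per the file headers. A count of 0 is listed by the authors at 0.0001 FPKM. Isoform length, a deposited value of another kind, served only to recover depth.

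Mapped fragments per library, recovered from count, length and FPKM of 23 or 24 isoforms with at least 1000 counts, were 58091756, 58606592 and 68990788 in the controls and 53127020, 80559726 and 73620788 in the knockdown libraries. Count over FPKM and depth varied by at most 0.149% between libraries for the 8 genes, so both units carry the same measurement.

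FPKM were tested with limma 3.58.1 (trend, log2(FPKM + 1), mean of at least 1 FPKM) and counts with edgeR 4.0.16 (quasi-likelihood, filterByExpr, TMM, recovered depths) in R 4.3.3, with Benjamini-Hochberg adjustment over all tested genes. Alternatives were other pseudocounts, filters and scalings, DESeq2 1.42.0, limma-voom, a block for the replicate number and omission of each library in turn. The SE given for edgeR was derived from its fold change and F statistic, as the test itself gives none. A planned test of list genes in the gene count table was not run, as no list gene was among its rows analysed here. Averaged over 85 to 91 genes, replicates differed by a chi-square of 24.2 to 64.3 per gene, far above counting noise. This average need not hold for each gene. The labels do not say that replicates were separate cultures, so the p-values here speak only of the spread among these samples, which may be technical.

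Of the marker lists, luminal, fibroblast, endothelial and neuroendocrine cells had 0 genes analysed here. Myeloid MPO and FGR (2 of 4) summed to at most 0.0570 FPKM in a control and erythroid SLC4A1 (1 of 3) to at most 0.0355 FPKM. All 8 genes, the members of the list, were named, with further list genes analysed here, some genes that overlap them and the 3 nearest profiles to UPF1 and REXO5. Members and lists were chosen with earlier results of these data known.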

Additional observations from a re-analysis of the deposited data

How the results depend on the processing

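Of the 8 genes, 5 were called by limma on FPKM and 5 by edgeR on counts. Limma called 3 with no low-value filter and 2 with the replicate block, and 2 to 5 when 1 library was left out. On counts 3 were called with upper-quartile factors and 3 with the replicate block, and 0 to 3 when 1 library was left out. The 0 came without knockdown 2 by edgeR, where 6 of the 8 had an unadjusted p under 0.05 and limma called 5. Among all tested genes, 31 of 85 had such an unadjusted p in that edgeR fit, and limma called 21 of 70 without knockdown 2. Over all tested genes, 22 were called by limma and 21 by edgeR, and 13 to 25 and 9 to 22 when 1 library was left out. With no low-value filter limma called 21 of 96 genes, and with the replicate block 17 of 70. On counts 18 of 84 genes were called with upper-quartile factors and 19 of 84 with the replicate block. With median centring limma called 30 genes, 23 of them rises, against 14 of 22 without it, and with quantile normalization 8 of 16 were rises; edgeR with upper-quartile factors had 8 rises of 18 against 13 of 21. The medians of the tested genes differed by -0.08 on the log2 scale between knockdown and control libraries. UPF1 was the only called gene of the 8 whose direction turned, with quantile normalization (-0.035 on the log2 scale), and the cause was not tested. LAS1L, RBM6 and REXO5 kept their direction in every setting run, as did GCFC2 and DHX33. Same-numbered libraries did not deviate together (r = -0.12, -0.12 and -0.13 over 70 genes). Control 1 with knockdown 2 had 0.29, control 3 with knockdown 1 had 0.24 and control 2 with knockdown 3 had 0.13. The remaining pairs were negative. Deviations from the mean of only 3 libraries depend on each other, so these values cannot decide whether the libraries were paired. With the block, edgeR also called DHX33 (adjusted p = 0.0474). The block ended the calls of UPF1 (adjusted p = 0.0755 by limma and 0.0839 by edgeR), RBM6 (0.0728 and 0.0662) and GCFC2 (0.0925 and 0.0953), and that of RPAP3 by limma (0.0733). The ratio of RBM6 to RBM5 with the replicate block differed by 0.30 (exact two-sided sign-flip p = 0.25, the smallest that 3 same-numbered pairs allow).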

Other observations

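Genes with an annotated transcript subject to nonsense-mediated decay, the pathway of UPF1, were compared with the rest, a split chosen after the data were seen. By the transcript types in the authors' table, 34 of the 70 tested genes had such a transcript, 6 of the 8 genes described here among them. Of the 34, 7 rose and 4 fell by limma, with a median log2 fold change of 0.03, and of the 36 without, 7 rose and 4 fell, with a median of 0.03. The values are sums over all transcripts of a gene, and changes of single transcripts were not measured here.

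Of the 46 tested genes with a retained-intron transcript, 10 rose and 7 fell (median 0.00), and of the 24 without, 4 rose and 1 fell (median 0.07). These are descriptions of the analysed rows, and the differences were not tested.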
